A study of Mus musculus with 2 samples.

Results

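Olfm4 was examined as 1 gene of the 32285 listed in a pair of single-cell RNA libraries from tumor-bearing mice, in the cells in which it was measured, the neutrophil lineage. Those cells were the members of clusters carrying fixed neutrophil or granulocyte progenitor markers, 3163 of the 8435 cells assigned to 1 treatment group in the liver-labelled library and 1299 of 2988 in the spleen-labelled library. Olfm4 had at least 1 UMI (a unique molecular identifier, which marks 1 captured RNA molecule) in 391 of the 3163 cells and in 126 of the 1299. The gene was chosen by its level in the dose groups, which had been seen to be higher with dose in neutrophils of both libraries, so its values by dose are a description and carry no test.

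The mice were BALB/cAnNCrl, female and aged 7 to 8 weeks per the study's methods, and all carried liver metastases of 4T1, a mouse breast carcinoma line, seeded through the spleen with removal of part of that organ (hemisplenectomy). All groups received a hepatic arterial infusion, of vehicle, of a low dose or of a high dose of CBL0137 (a curaxin, a DNA-binding drug that destabilizes chromatin), and cells were taken 5 days later with 2 mice pooled per group. The amount given as each dose is not stated in the sources used here. Each group was marked before pooling by an antibody hashtag, whose barcode assigned each cell to its group:

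A0301, vehicle: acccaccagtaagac
A0305, low dose: ctttgtctttgtgag
A0310, high dose: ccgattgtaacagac

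With 1 pooled sample per group in each library there was no replicate, no test between groups was possible, and every interval below is a 95% interval for counting error only. The study's methods describe selection on CD11b, a myeloid surface marker, but the liver-labelled library held 2472 T cell-like and 1520 B cell-like cells.

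The tissue labels went against the tissue markers. Genes of liver-resident cells were abundant in the spleen-labelled library, where 4 Kupffer cell genes reached 437 counts per 1000000 UMIs (CPM), 6 hepatocyte genes 77.6 CPM and 3 sinusoidal endothelial genes 136 CPM, against 8.56, 0.102 and 0.364 CPM in the liver-labelled library. Clec4f, a receptor that marks Kupffer cells, had 124.5 CPM in the spleen-labelled library and no UMI in the liver-labelled library, which allows up to 0.0437 CPM. Genes of splenic cells were higher in the liver-labelled library (146 against 37.6 CPM). The libraries are therefore called by their labels throughout, and no tissue is drawn from them. They had a median of 4673 and 3368.5 UMIs per barcode over 9591 and 4830 barcodes, and 15 barcode names occurred in both, 3 of them on lineage cells of each library.

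Olfm4 encodes olfactomedin 4, a secreted glycoprotein that neutrophils store in their specific granules. These granules are filled at the myelocyte and metamyelocyte stages, after the azurophil granules (Mpo, Elane) and before the gelatinase granules (Mmp9). Olfactomedin 4 is known in mice and humans for marking only a subset of neutrophils, and its protein has been described to bind Ndufa13, to inhibit cathepsin C and to restrain NOD1 and NOD2 signaling through RIPK2.

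The gene (ENSMUSG00000022026) lies on the forward strand of mouse chromosome 14, at chr14:79984081-80023139 in GENCODE release M21 (GRCm38). Of its 3 annotated transcripts 2 are coding. The one with the longer coding sequence has 7 exons and 1614 coding bases from a start at position 80000302, and the other coding transcript begins at position 80000251. A long intergenic RNA gene on the same strand, Gm6999, overlaps the first part of the gene, and it had 0 UMIs in both libraries. The sequence before the first coding transcript, which all cells share, is shown as a description and was not tied to which cells held Olfm4. It is chr14:80000052-80000248 and the 30 bases that follow it, nearly all within the 5′ UTR of the transcript that begins at 80000251, forward strand, from RefSeq (GRCm38.p6), with motif matches in capitals:

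Olfm4 upstream: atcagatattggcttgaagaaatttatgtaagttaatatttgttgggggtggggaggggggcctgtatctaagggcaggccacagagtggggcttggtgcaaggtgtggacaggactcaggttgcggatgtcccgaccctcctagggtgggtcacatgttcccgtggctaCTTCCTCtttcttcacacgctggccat
Olfm4 next 30 bases: gGGGAAATCCCCactgggagcTATAAgaag

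The first line holds a match to GAGGAAG, the core bound by the myeloid factor PU.1, on the reverse strand, 74 to 80 bases before position 80000302. In the second line, overlapping matches to the NF-kB consensus lie 42 to 52 bases before that position, and a TATAA lies 28 to 32 bases before it. Over the 250 bases before the start, 10.6% of 32851 RefSeq promoters held GAGGAAG on either strand, 7.25% the NF-kB consensus on either strand and 16.0% TATAA on the gene strand. TTGCNNAA, a form of the C/EBP site, and TTCNNNGAA, a STAT site, had no match there, against 9.56% and 7.02% of promoters. The motifs were chosen with the sequence in view, and a match is a stretch of letters, not a measured site.

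Olfm4 RNA was nearly confined to the neutrophil lineage in these libraries. Lineage cells held 11733 of the 11806 Olfm4 UMIs of all assigned cells in the liver-labelled library (99.4%) and 2707 of 2751 in the spleen-labelled library (98.4%). The lineage level was 329 CPM (323 to 335) and 201 CPM (194 to 209). In the liver-labelled library the next levels were 2.74 CPM in monocyte-like, 2.28 in B cell-like, 2.26 in unnamed, 2.08 in dendritic cell-like, 1.97 in T cell-like, 1.86 in macrophage-like and 1.42 in NK cell-like cells, all with overlapping intervals. In the spleen-labelled library, macrophage-like cells had 8.87 CPM (6.34 to 12.1), with 31 of their 40 UMIs in 1 cell. Next were endothelial cell-like (1.13, 1 UMI), unnamed (0.930, 1 UMI) and monocyte-like cells (0.881, 2 UMIs). No Olfm4 UMI was found there in 317 T cell-like, 131 B cell-like, 163 hepatocyte-like, 74 4T1 tumor cell-like or 25 plasmacytoid dendritic cell-like cells, which allows shares of cells of up to 0.946%, 2.29%, 1.84%, 4.05% and 12%.

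T and B cells serve as a measure of free RNA in the droplets, since they should not make Olfm4. Of the T cell-like cells of the liver-labelled library, 0.890% had an Olfm4 UMI at a median of 4819 UMIs per cell, against 12.4% of lineage cells at a median of 6308. After each cell was thinned by random draws to 1000 UMIs the shares were 0.203% in T cell-like (0.0658 to 0.472%), 0.231% in B cell-like (0.0477 to 0.674%) and 7.69% in lineage cells (6.78 to 8.67%). No T cell-like cell held more than 3 Olfm4 UMIs. The lineage share in the spleen-labelled library was 9.70% unthinned and 7.16% thinned (5.80 to 8.72%), with 0 of 316 T cell-like cells after thinning, which allows 0.949%.

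Within the lineage, Olfm4 was a gene of few cells that carried many copies. In the liver-labelled library 2772 of 3163 cells (87.6%) had no UMI, while 125 cells (3.95%) had 30 or more and held 87.3% of all lineage UMIs. In the spleen-labelled library 34 of 1299 cells (2.62%) had 30 or more and held 79.2%. The most heavily loaded cells held 174, 135 and 315 Olfm4 UMIs in the vehicle, low-dose and high-dose groups of the liver-labelled library, and 75, 96 and 164 in the spleen-labelled library. The number of cells that held 50% of a group's Olfm4 UMIs was 16, 24 and 10 in the former and 4, 8 and 6 in the latter. Intervals on summed UMIs count molecules and not cells, so they are narrower than the cell-to-cell spread allows.

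**Figure D1:**
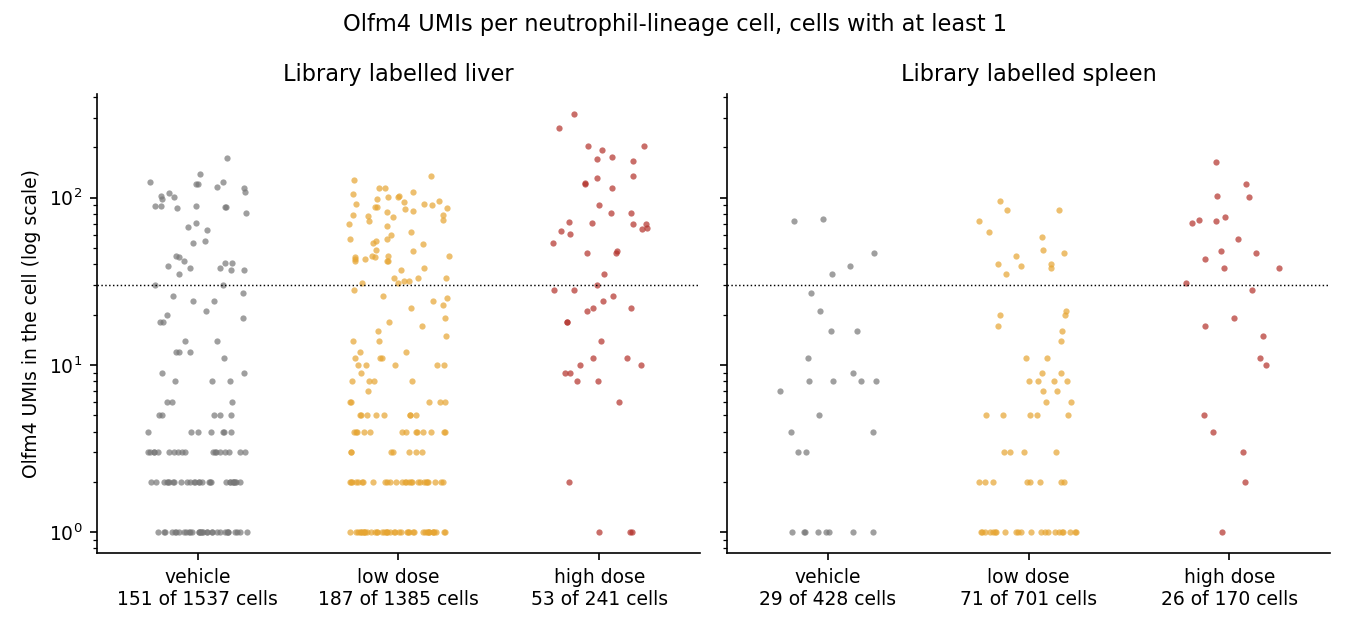
Olfm4 UMIs in each neutrophil-lineage cell with at least 1, by treatment group, on a log axis; each point is 1 cell, its sideways position within a group is random, and the dotted line marks 30 UMIs. Cells above the line numbered 38, 57 and 30 (vehicle, low and high dose) in the liver-labelled library and 5, 14 and 15 in the spleen-labelled library (a cell at exactly 30 counts as above).

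Deep cells were divided in the same way. Among the 607 lineage cells of the liver-labelled library with at least 20000 UMIs, 508 still had no Olfm4 UMI, 16 had 1 to 4, 9 had 5 to 29 and 74 had 30 or more. At that depth 12.2% of cells (9.70 to 15.1%) carried 30 or more UMIs, with few cells between them and those with none. Of the 208 such cells in the spleen-labelled library, 195 had none, 2 had 1 to 4, 3 had 5 to 29 and 8 had 30 or more (3.85%, 1.67 to 7.44%). Deep cells with Olfm4 held a median of 71 Olfm4 UMIs in the former and 38 in the latter library. The cutoff of 20000 UMIs was chosen after the values were seen.

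**Figure D2:**
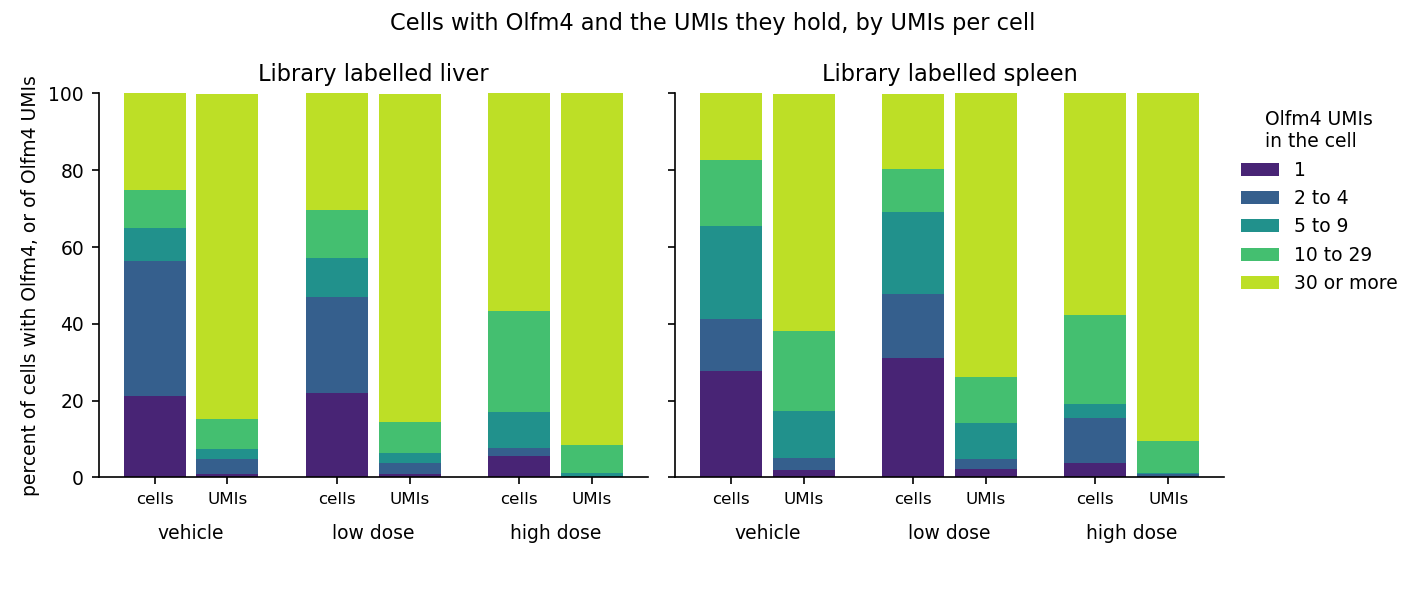
For each treatment group, the left bar divides the lineage cells with Olfm4 by their number of Olfm4 UMIs and the right bar divides the Olfm4 UMIs among the same classes of cells, both in percent. Cells with 30 or more UMIs held 84.9%, 85.7% and 91.6% of the UMIs of the vehicle, low-dose and high-dose groups in the liver-labelled library and 61.8%, 73.8% and 90.4% in the spleen-labelled library.

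The level of Olfm4 over the lineage was ordered vehicle, low dose, high dose in both libraries. In the liver-labelled library it was 224 CPM (216 to 231) in vehicle, 321 CPM (312 to 330.3) in low-dose and 636 CPM (616 to 657) in high-dose cells, over 1537, 1385 and 241 cells. In the spleen-labelled library it was 94.5 CPM (85.8 to 104), 174 CPM (164 to 185) and 442 CPM (418 to 468), over 428, 701 and 170 cells. The high-dose level was 2.84 times the vehicle level (2.71 to 2.98) and 4.68 times (4.19 to 5.24), and the low-dose level was 1.43 times (1.37 to 1.50) and 1.85 times (1.65 to 2.07). None of these intervals overlapped within a library. Both contrasts share the vehicle cells. Without the top 1% of cells by Olfm4 UMIs in each group, the log2 ratio of high dose to vehicle was 2.21 instead of 1.51 in the liver-labelled library and 3.23 instead of 2.23 in the spleen-labelled library. That cut takes a larger part of the Olfm4 UMIs from vehicle than from high dose, so a higher ratio follows from the procedure. With the CPM of single cells averaged, the log2 ratio of high dose to vehicle was 2.12 in the liver-labelled library. A cluster of that library led by Car2 and Myb, left out of the lineage as unnamed, held 40 vehicle and 92 high-dose cells. With it added, a choice made after the data were seen, the log2 ratio there was 1.06.

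The ordering was set against strong differences in the cells that were left. Lineage cells were 49.5% of assigned cells in vehicle, 43.4% in low dose and 11.3% in high dose in the liver-labelled library, and 52.1%, 53.9% and 19.7% in the spleen-labelled library. Their median depth was 4890, 6316 and 20789 UMIs in the former and 6598.5, 4941 and 15422 in the latter, so the high-dose cells were the deepest. Whether these shifts in number and depth set the level of Olfm4 was not tested.

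Shares of cells were compared at equal depth. At 1000 UMIs per cell, 86 of 1529 vehicle cells (5.62%), 114 of 1380 low-dose cells (8.26%) and 42 of 239 high-dose cells (17.6%) had an Olfm4 UMI in the liver-labelled library. The share in high dose exceeded that in vehicle by 11.9 percentage points (7.17 to 17.5) and the share in low dose by 2.64 (0.743 to 4.56). In the spleen-labelled library the counts were 23 of 416 (5.53%), 47 of 686 (6.85%) and 21 of 169 (12.4%), with differences from vehicle of 6.90 points at high dose (1.62 to 13.2) and 1.32 at low dose (-1.87 to 4.26). The interval of the low-dose difference there spanned both signs, for counting error alone. All these shares rest on 1 random draw. Expected over all draws, a value added after the data were seen, the differences at high and low dose were 10.8 and 2.58 points (labelled liver). They were 7.41 and 2.32 points in the spleen-labelled library. Thinning left out 8, 5 and 2 cells and 12, 15 and 1 cells that were too shallow. Without thinning the shares were 9.82%, 13.5% and 22.0% in the former and 6.78%, 10.1% and 15.3% in the latter library. T cell-like cells were at 0.169%, 0.233% and 0.197% over the 3 groups of the liver-labelled library after thinning. These shares were 1, 2 and 2 cells, too few to compare the groups. Without thinning they were 0.676%, 0.465% and 1.37%, highest at high dose.

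**Figure D3:**
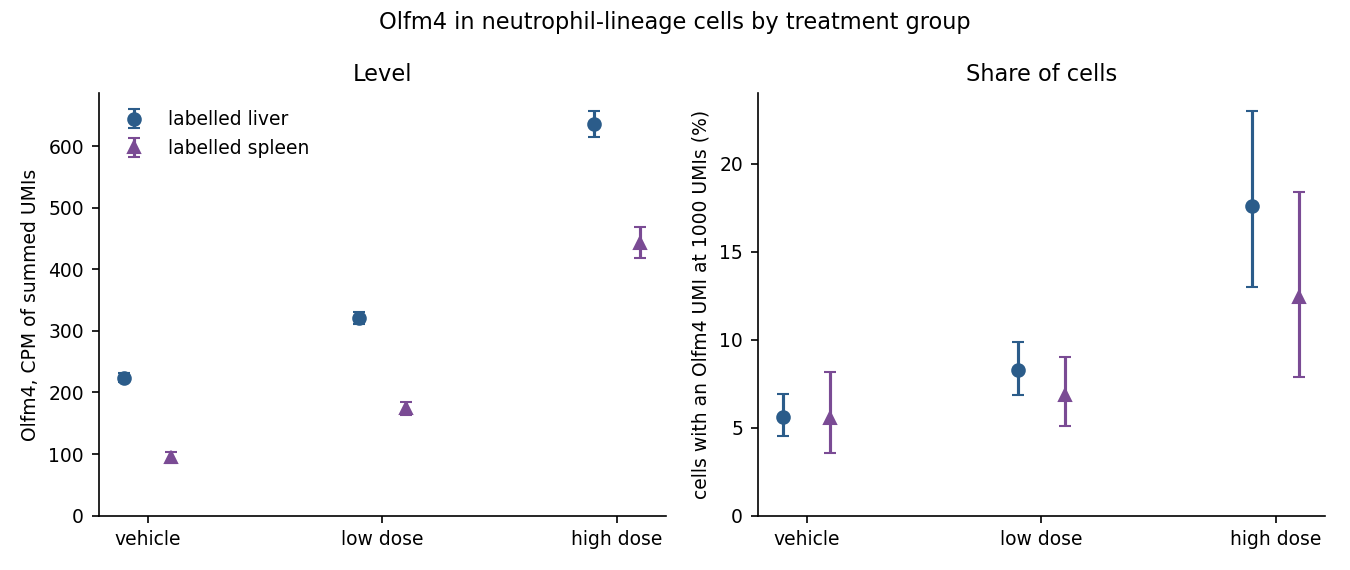
Left, Olfm4 level of the neutrophil lineage in CPM of summed UMIs; right, percent of lineage cells with an Olfm4 UMI after thinning to 1000 UMIs; points are groups, circles the liver-labelled library and triangles the spleen-labelled library, and bars are exact 95% counting intervals. The high-dose group stands highest in all 4 series, from 224 to 636 CPM and from 5.62% to 17.6% in the liver-labelled library.

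The median level within positive cells was also higher at high dose over the lineage as a whole. Among lineage cells with Olfm4, the median level within a cell was 801 CPM in vehicle, 974 CPM in low dose and 2409 CPM in high dose in the liver-labelled library, and 1079, 1090 and 2965 CPM in the spleen-labelled library. Cells with 30 or more UMIs were 2.47%, 4.12% and 12.4% of the lineage in the former. In the latter they were 5 of 428 (1.17%), 14 of 701 and 15 of 170 (8.82%). These shares were not thinned, and the high-dose cells were the deepest. In cells with at least 20000 UMIs, where median depths were 27330, 27706 and 29098.5 UMIs, the share with Olfm4 was 13.1% (9.34 to 17.7%) of 275 vehicle cells, 17.5% (12.6 to 23.4%) of 206 low-dose cells and 21.4% (14.6 to 29.6%) of 126 high-dose cells in the liver-labelled library. These intervals overlapped, and so did those of the spleen-labelled library, at 2 of 78, 4 of 78 and 7 of 52 cells. Deep cells with Olfm4 in the liver-labelled library held a median of 84, 56 and 71 Olfm4 UMIs, an order that does not follow dose.

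Olfm4 was found in every cluster of the lineage, at levels that differed widely. In the liver-labelled library it was highest in the cluster led by the specific granule genes Ltf, Camp and Ngp (495 CPM, 481 to 509, 405 cells), followed by a cluster led by Prok2, Retnlg and Ly6g (422 CPM, 402 to 443, 294 cells) and one led by the stefin genes Stfa3 and Stfa2, cysteine protease inhibitors (383 CPM, 368 to 399, 446 cells). The intervals of the last pair lay next to each other without overlap. The progenitor-like cluster led by Elane, Prtn3 and Fcnb had 254 CPM (248 cells). Lowest were a pair of clusters led by Il1b, the gene of interleukin-1 beta, with 98.7 CPM where Saa3 led (959 cells) and 82.6 CPM where Il1b led (811 cells), whose intervals overlapped.

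In the spleen-labelled library the order was similar with another top. The cluster led by Ly6g and Stfa3 had 488 CPM (464 to 512, 287 cells), and the cluster led by Camp, Cebpe and Fcnb had 250 CPM (234 to 268, 169 cells). A cluster led by Bcl2l15, Orm1 and Saa1 had 157 CPM (125 cells), one led by Wfdc17 and G0s2 had 84.9 CPM (330 cells), and one led by Ccrl2 and Il1b had 43.9 CPM (228 cells). The progenitor-like cluster, led by Ctsg, Mpo and Myb, had 6 Olfm4 UMIs in 160 cells (1.42 CPM, 0.522 to 3.10), which is within the range of cells outside the lineage. Cells with 30 or more UMIs were found in the Ltf/Camp/Ngp, stefin, Elane, Prok2 and Saa3 clusters of the liver-labelled library (53, 30, 22, 19 and 1 cells) and in the Ly6g/Stfa3 and Camp/Cebpe clusters of the spleen-labelled library (21 and 13 cells).

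Within clusters the high-dose cells were not higher throughout. In the stefin cluster of the liver-labelled library Olfm4 was 176 CPM in vehicle, 266 in low dose and 727 in high dose, and in the Ltf/Camp/Ngp cluster 352, 537 and 820 CPM. In its Elane cluster it was 160, 211 and 526 CPM. In the spleen-labelled library the Ly6g/Stfa3 cluster had 177, 549 and 695 CPM and the Camp/Cebpe cluster 156, 184 and 435 CPM. In these 5 clusters the high-dose level lay above the vehicle level beyond the counting interval of UMIs. By cells at 1000 UMIs, the difference in share between high dose and vehicle had an interval above 0 in the stefin cluster alone, at 16.6 points (7.25 to 26.4). The interval included 0 in the other 4, at 10.3 points in the Ltf/Camp/Ngp cluster (-0.347 to 23.9), 3.97 in the Elane cluster (-5.25 to 17.5), 8.45 in the Ly6g/Stfa3 cluster (-2.47 to 19.4) and 8.09 in the Camp/Cebpe cluster (-4.75 to 22.9). In the Elane cluster 1 cell held 315 of the 927 high-dose UMIs. Among cells with Olfm4, the median level in vehicle and high dose was 1386 and 1878 CPM in the stefin cluster. It was 2906 and 3336 CPM in the Ltf/Camp/Ngp cluster. In the Elane cluster it was lower at high dose, at 1460 and 401 CPM, over 10 such cells in each group.

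The other clusters differed. The Prok2 cluster of the liver-labelled library had 454 CPM in 83 vehicle cells and 474 CPM in 190 low-dose cells, but no Olfm4 UMI in 21 high-dose cells, which allows 8.31 CPM for those cells. By cells, 9 of 83 vehicle cells (10.8%) had Olfm4 at 1000 UMIs, and 0 of 21 high-dose cells allows a share of 14.3%. The difference of -10.8 points had an interval that included 0 (-19.6 to 6.27). Without thinning, 15 of 83 vehicle cells (18.1%) had an Olfm4 UMI. In the Wfdc17/G0s2 cluster of the spleen-labelled library the levels were 102, 78.1 and 69.5 CPM, with overlapping intervals. The Saa3 and Il1b clusters of the liver-labelled library held 9 and 3 high-dose cells and the Ccrl2/Il1b cluster of the spleen-labelled library 3, too few to give a level. The former pair made up 42.1% and 23.0% of vehicle lineage cells and 3.73% and 1.24% of high-dose lineage cells, while the stefin cluster made up 10.3% and 46.9%.

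**Figure D4:**
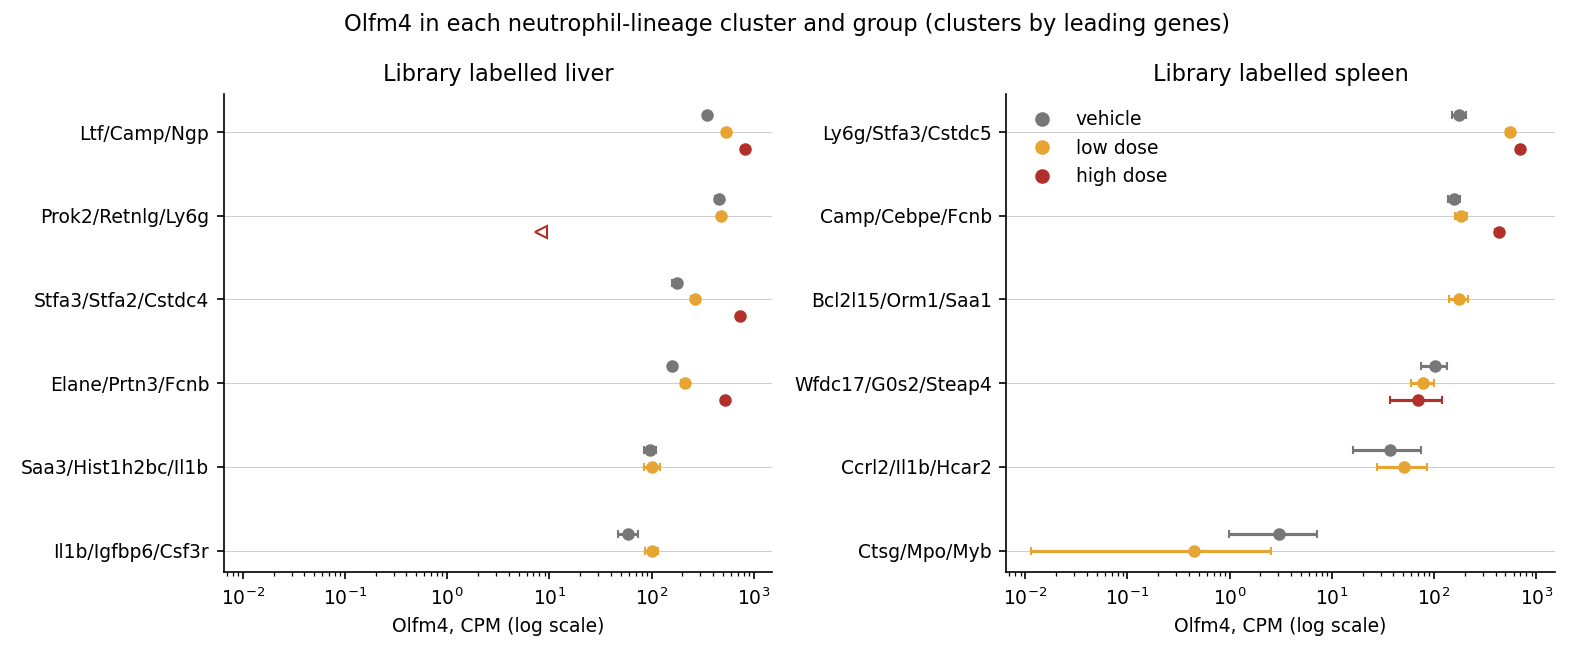
Olfm4 in CPM on a log axis in each neutrophil-lineage cluster, named by its first 3 leading genes and ordered by level, with 1 point per treatment group and exact 95% counting intervals; groups with under 20 cells in a cluster are not drawn, and the open triangle is the limit that 0 UMIs allow. The high-dose points lie to the right in the stefin, Ltf/Camp/Ngp and Elane clusters (727, 820 and 526 CPM) and at or below 8.31 CPM in the Prok2 cluster.

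The high-dose ratio was smaller at equal cluster composition, counted in UMIs. Every group's cluster levels were weighted by each cluster's part of the vehicle group's lineage UMIs, not of its cells. In the liver-labelled library the Saa3 and Il1b clusters held 2569519 and 1352245 of 15624703 such UMIs, a smaller part than of cells. Weights by cells were not used. The high-dose level was 488 CPM against 224 CPM in vehicle in the liver-labelled library (a log2 ratio of 1.13 instead of 1.51). In the spleen-labelled library it was 275 CPM against 94.5 CPM (1.54 instead of 2.23). The low-dose ratios were 0.47 instead of 0.52 and 0.91 instead of 0.88. The levels given to clusters with under 20 high-dose cells enter this sum.

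Between the libraries, the level of the lineage as defined here was lower in the one labelled spleen in every group. Log2 ratios to the liver-labelled library were -1.24 in vehicle (-1.39 to -1.10), -0.88 in low dose (-0.98 to -0.78) and -0.52 in high dose (-0.62 to -0.43). The spleen-labelled lineage included the progenitor-like cluster led by Ctsg, Mpo and Myb (1.42 CPM). The liver-labelled cluster led by Car2 and Myb (1.30 CPM) was left out as unnamed. It held 92 high-dose cells against 241 in the lineage, and the libraries were not compared with it added. Over neutrophil-like clusters only, the liver-labelled levels were 243, 352 and 684 CPM in vehicle, low dose and high dose. The spleen-labelled levels there were 145, 272 and 513 CPM. The thinned shares of cells differed by -0.0957 points in vehicle (-2.46 to 2.78), -1.41 in low dose (-3.78 to 1.16) and -5.15 in high dose (-12.2 to 2.37). Each of these counting intervals spanned both signs. These shares come from 1 random draw. Expected over all draws, the vehicle shares were 5.94% (labelled liver) and 4.46% (labelled spleen). Those of low dose were 8.52% and 6.78%, and those of high dose 16.7% and 11.9%. Libraries and tissues cannot be told apart here.

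Cells with Olfm4 were compared gene by gene with the other cells of the lineage, across all its clusters. Those counted as without it include cells whose Olfm4 UMIs were lost in thinning. At 1000 UMIs per cell, 242 lineage cells with and 2906 without an Olfm4 UMI were compared in the liver-labelled library and 91 and 1180 in the spleen-labelled library, within each treatment group and then averaged over the 3 groups, on a log2 scale with 0.5 UMI added. Among 2460 genes with enough UMIs in both libraries, 0 (0%) were at least 2-fold higher in both libraries in cells with Olfm4, and 24 (0.976%) were at least 2-fold lower in both. Within a library, 13 genes (0.528%) were 2-fold higher and 109 (4.43%) lower in the liver-labelled library, and 82 (3.33%) higher and 188 (7.64%) lower in the spleen-labelled library, where fewer cells were compared.

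The genes most like Olfm4 in both libraries were higher in its cells on average over the groups, none of them by 2-fold in both. Cyfip2, a regulator of actin assembly, was at 119 against 71.1 CPM in cells with and without Olfm4 in the liver-labelled library and 127 against 64.5 CPM in the spleen-labelled library (log2 ratios of 0.98 and 1.13). Wdr26, a subunit of a ubiquitin ligase, was at 189 against 113 CPM and 207 against 110 CPM (0.79 and 1.03). Stfa3 was the most abundant of the 12, at 3132 against 1644 CPM and 2190 against 1379 CPM (0.68 and 0.80), and Cybb, the heme-binding subunit of the NADPH oxidase, had 0.63 and 0.68. The others were Fam173a, Lsm12, Ifi47, BC031181, Hpcal1, Nt5c2, Eif4b and Dnttip1, with the lower of their log2 ratios between 0.61 and 0.77. Dnttip1 was above 0 in only 3 of the 6 sets of cells (each group of each library). Fam173a, Lsm12, Ifi47 and BC031181 were above 0 in 5, and the rest of the 12 in all 6. Apart from Stfa3 and Cybb these genes had 102 to 363 thinned UMIs in the liver-labelled library and 53 to 157 in the spleen-labelled library, and the added 0.5 UMI raises ratios of such genes where few cells had Olfm4.

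The 6 genes lowest in cells with Olfm4 in both libraries were of several kinds. Ctsg, the azurophil granule protease cathepsin G, had log2 ratios of -3.33 and -3.02, at 3.89 against 116 CPM and 43.0 against 441 CPM. Mpo, myeloperoxidase, had -1.54 and -1.99. The globin genes Hbb-bs (-1.94 and -4.27) and Hba-a2 (-2.30 and -1.74) are red cell genes, and Hba-a2 was above 0 in 2 of the 6 sets of cells. Hspd1, a mitochondrial chaperonin (-1.41 and -2.46), and Lsm5, an RNA-binding protein (-1.44 and -1.35), completed the 6. Hba-a2 in the liver-labelled library and Hspd1 in the spleen-labelled library had no UMI in cells with Olfm4, so those ratios depend on the 0.5 UMI added. Other ratios here rest on few cells with a UMI. Ctsg was found in 0.413% of cells with Olfm4 in the liver-labelled library and 2.20% in the spleen-labelled library. Hspd1 was found in 0.413% of them in the former, and Hbb-bs and Hba-a2 each in 1.10% of them in the latter. The added 0.5 UMI weighs on those ratios as well.

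By granule class the azurophil genes stood apart. Of 6 genes 5 were measured, and 4 (Elane, Mpo, Ctsg and Prtn3) were at least 2-fold lower in cells with Olfm4 in each library, with a median log2 ratio of -1.54 and -1.14 against -0.10 and -0.05 over all genes compared. Ms4a3, the fifth, had -0.88 and -0.73. Specific granule genes, among which Olfm4 protein is stored, had medians of 0.23 and 0.45 over 10 of 12 measured, none past 2-fold in either direction. Ltf (lactoferrin) was at 0.40 and 0.55, Ngp at 0.31 and 0.62, Camp (cathelicidin) at 0.26 and 0.77 and Mmp8 (collagenase) at 0.14 and -0.14. The gelatinase granule list had medians of 0.20 and 0.51 over 5 genes. Of these Padi4, the citrullinating enzyme of neutrophils, was past 2-fold in the spleen-labelled library (0.32 and 1.42). The lists were used as fixed, and Padi4, Arg2 and, in the azurophil list, Ms4a3 are not established granule cargo.

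Genes of mature neutrophils and of proliferation leaned the other way or stayed near 0. The 10 mature neutrophil genes had medians of -0.12 and -0.09 with none past 2-fold, among them Il1b (0.06 and -0.52) and Cxcr2, the receptor for release from bone marrow (-0.15 and -0.28). The 7 proliferation genes had medians of -0.49 and -0.64, and only Stmn1 in the spleen-labelled library was 2-fold lower (-0.95 and -1.48). Of the granulocyte transcription factors, Spi1 (PU.1) was at 0.13 and 0.37, and Cebpe at -0.63 and 0.35. Runx1 was at -1.12 and -0.001. In the liver-labelled library Runx1 was found in 0.826% of cells with Olfm4, at -3.00 in vehicle, -1.38 in low dose and 1.01 in high dose. Cebpa and Gfi1 were too sparse. Of the described partners, Ctsc had -0.05 and -0.37 and Ndufa13 -0.40 and 0.06, and Nod1, Nod2 and Ripk2 were too sparse, as were all 9 other olfactomedin family genes.

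**Figure D5:**
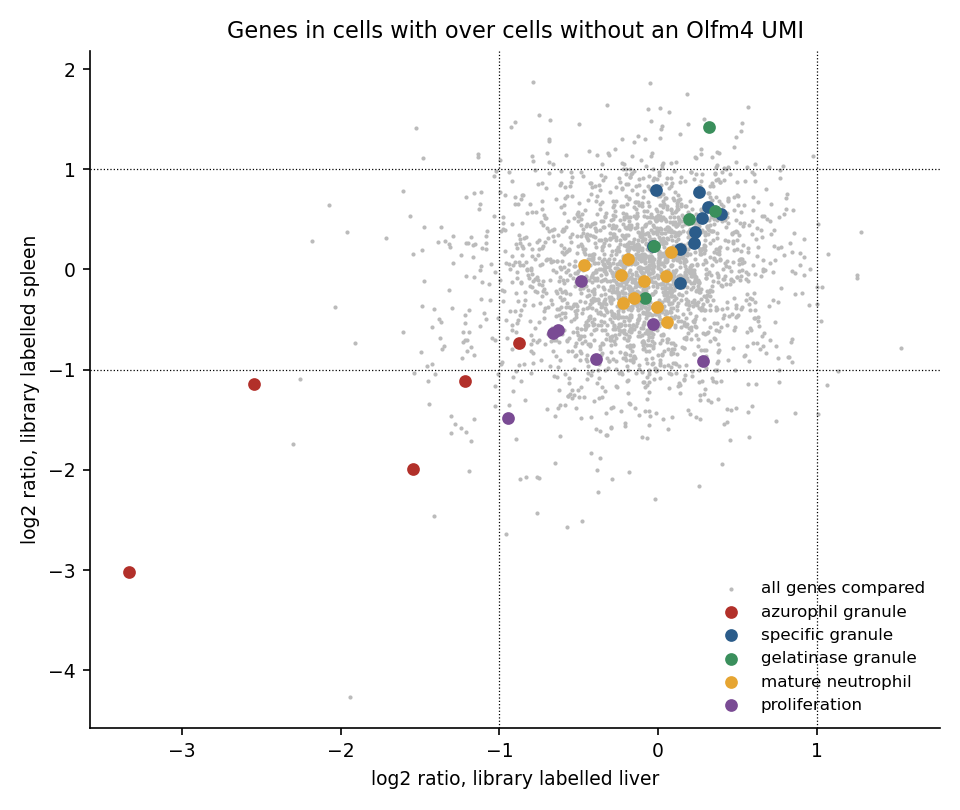
Each grey point is 1 of 2460 genes, placed by its log2 ratio in lineage cells with over cells without an Olfm4 UMI in the liver-labelled library (horizontal) and in the spleen-labelled library (vertical), with granule, maturity and proliferation genes in color and dotted lines at 2-fold. No gene lies in the upper right corner past both lines, and 4 of 5 genes of the azurophil list lie past both lines at the lower left.

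Cells with and without Olfm4 were also compared inside the Camp and Ngp cluster of each library, a choice made after the data were seen. This comparison used all UMIs of the cells, not thinned, and pooled the treatment groups, which the lineage comparison kept apart, so the mix of groups was not made equal between the cells with and without Olfm4. There 64 cells with and 341 without Olfm4 were compared in the liver-labelled library and 19 and 150 in the spleen-labelled library, at nearly equal depth (medians of 23111 and 22872 UMIs, and of 20177 and 19554). Of 1411 genes with at least 200 UMIs in each, 0 (0%) were 2-fold higher and 0 (0%) were 2-fold lower in both libraries. Camp (-0.25 and 0.28), Ngp (-0.12 and 0.15), Ltf (-0.08 and 0.32), Lcn2 (-0.06 and 0.20) and Cebpe (-0.03 and -0.24) were all near 0. Of the azurophil list, Prtn3 (-0.09 and -0.71) and Ms4a3 (0.14 and -1.07) were measured there. They were near 0 in the liver-labelled library and lower in cells with Olfm4 in the spleen-labelled library. Cyfip2 was at 0.34 and 0.07 and Wdr26 at -0.04 and 0.37. The highest in both were Ifitm1 (0.69 and 1.01), H2afx, a histone variant (1.56 and 0.68), Stfa3 (0.60 and 1.38) and Retnlg (0.49 and 0.92), and the stefin relatives Cstdc5, Cstdc4 and Stfa2 had 0.42 to 0.49 and 0.73 to 1.05. The rest of the 10 highest were the cell division genes Ube2c (0.98 and 0.46), Bub3 (0.41 and 0.49) and Hmmr (0.48 and 0.40). Of the proliferation list, Top2a was at 1.51 and 0.18, Mki67 at 0.28 and -0.27 and Ccnb2 at -0.12 and -0.47, whereas over the lineage the list's median was below 0.

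Across all clusters of a library, inside and outside the lineage, the level of Olfm4 followed that of several neutrophil genes. Over the 22 and 18 clusters, log2 CPM of Olfm4 correlated best with that of Ly6g, the surface antigen that defines mouse neutrophils (Pearson's r = 0.97 and 0.96), Cd177, a specific granule surface protein (0.96 and 0.97), Ankrd22 (0.96 and 0.96), Ceacam10 (0.98 and 0.95) and Slc22a20 (0.95 and 0.95). Only 6 clusters of each library belonged to the lineage, and Olfm4 was low in the rest. A high r can thus be reached by any gene confined to the lineage, whatever its order within it. Clusters of a library share its cells, depth and free RNA, so the correlations describe the pattern and have no p.

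Granule genes were compared with Olfm4 over the dose groups. Over the lineage, Olfm4 ranked number 11 from the top of 8401 genes by its ratio of high dose to vehicle in the liver-labelled library. In the spleen-labelled library it ranked number 20 of 7259. The gene was chosen for being higher with dose, so a high rank followed from the choice. At least 2-fold higher at high dose were 59 genes (0.702%) and 73 genes (1.01%), and at least 2-fold lower 584 (6.95%) and 542 (7.47%). Of the 12 specific granule genes 0 were past 2-fold in either library, with median log2 ratios of 0.11 and 0.53 against -0.13 and -0.28 over all genes. All 12 lay above 0 in the spleen-labelled library. Lcn2 followed the order of Olfm4, with 11831 CPM in vehicle, 12364 at low dose and 14452 at high dose in the liver-labelled library and 7721, 8440 and 12383 CPM in the spleen-labelled library (log2 ratios at high dose of 0.29 and 0.68). Pglyrp1, a peptidoglycan-binding protein (0.25 and 0.59), and Mmp25 and Padi4 (0.30 and 0.72) of the gelatinase list had the same order in both libraries. The other genes of the specific granule and gelatinase lists did not have it in both. Some steps were small. From vehicle to low dose in the spleen-labelled library, Pglyrp1 went from 1833 to 1859 CPM and Padi4 from 37.4 to 38.2 CPM. The share of all genes with this order is not given here. Cd177 had 0.41 and 0.85, Camp -0.38 and 0.14, Ltf 0.01 and 0.63, and Abca13, a lipid transporter, had the highest ratio of the 12 in the spleen-labelled library (0.39 and 0.98). All 6 genes of the azurophil list lay above 0 in the liver-labelled library (median 0.53) and below 0 in the spleen-labelled library (median -0.34), as Mpo did at 0.89 and -0.89. The lineages compared were unlike for these genes. The spleen-labelled lineage included the cluster led by Ctsg, Mpo and Myb, with 66 vehicle and 14 high-dose cells. The Car2 and Myb cluster of the liver-labelled library, with 40 vehicle and 92 high-dose cells, was left out. Whether this set the opposite signs was not tested.

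The 10 mature neutrophil genes had median ratios at high dose of -0.52 and -0.17, the latter above the median of all genes. Il1b had log2 ratios of -2.29 and -1.59 and Cxcl2, a neutrophil chemokine, -1.36 and -1.36, and Ccl6 was past 2-fold in the liver-labelled library (-1.01 and 0.01), so that 3 and 2 of 10 genes were 2-fold lower. Cxcr2 (0.31), Fpr2 (0.37) and Fpr1 (0.14) lay above 0 in the spleen-labelled library. Mmp25 was the one gene of the gelatinase list past 2-fold (0.53 and 1.20). The 7 proliferation genes had medians of 0.36 and -0.23, with none past 2-fold. Olfm1, another olfactomedin, was at -1.32 in the spleen-labelled library and -0.42 in the liver-labelled library. Of the 5 partner genes 4 and 3 were measured, with none past 2-fold.

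At low dose fewer genes differed from vehicle, 17 of 9005 (0.189%) being 2-fold higher and 66 (0.733%) lower in the liver-labelled library, and 69 of 8360 (0.825%) higher and 40 (0.478%) lower in the spleen-labelled library. Olfm4 ranked number 186 and number 105 from the top, ranks that the choice of the gene also favored. None of the specific granule, azurophil or proliferation genes was past 2-fold, while Il1b (1.12) and Fpr1, a formyl peptide receptor (1.09), were 2-fold higher in the spleen-labelled library. Il1b was thus higher at low dose and lower at high dose than in vehicle in both libraries (0.82 at low dose in the liver-labelled library), whereas Olfm4 was higher at both.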

How the data were processed

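Droplet RNA counts (10x Genomics) of a pair of libraries were used, each mixing 3 hashtag-stained groups of pooled mice. The deposited values were raw UMI counts per gene, hashtag and barcode in the filtered matrices the authors made with Cell Ranger against mm10. The labels name version 6.0.0 and the matrix headers 5.0.0, and which made the files was not settled. Neither the counts nor the barcodes were filtered further. Every barcode had at least 500 UMIs, and the libraries totalled 79585807 UMIs (labelled liver) and 35672251 UMIs (labelled spleen).

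Hashtags were called with HTODemux at the 0.99 quantile in Seurat 5.3.0 (R 4.3.3), which gave 8435 and 2988 barcodes of 1 hashtag, 616 and 215 of more than 1, and 540 and 1627 of none. Barcodes of 1 hashtag were normalized with sctransform 0.4.2 and clustered on 30 principal components at resolution 0.8, with Olfm4 removed from the variable features. A cluster was named where at least 3 fixed markers of a type were raised at least 2-fold against the other cells (10 CPM added) in at least 20% of cells and its 10 leading genes did not go against the name. The last condition was completed after the data were seen and left a cluster led by Car2 and Myb, with Cd34, unnamed in the liver-labelled library. Neutrophil-like and granulocyte progenitor-like clusters form the lineage. Doublets between groups were removed by hashtag. Scrublet (scanpy 1.11.5) marked 248 barcodes of the liver-labelled library and 1 of 4830 in the spleen-labelled library, where it had not worked, and was used only as an alternative.

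Levels are CPM of summed UMIs with exact Poisson intervals, ratios have exact conditional binomial intervals, and shares have exact Clopper-Pearson intervals, all at 95% and for counting error only. A count of 0 was read as a limit of 3 counts. Cells were thinned to 1000 UMIs with a fixed seed (Python 3.11.15, numpy 2.4.6, scipy 1.17.1). Scripts were tested on simulated data. Named genes were Olfm4, the genes of 8 fixed groups, the 12 highest and 6 lowest genes by likeness (the lower, or for the lowest the higher, of the log2 ratios of both libraries, over genes with at least 50 thinned UMIs in each) and the 5 with the highest correlation over clusters. Olfm4 and all lists were chosen with earlier results of these data known. Within the Camp and Ngp clusters, 10 genes at each end were ranked over genes with at least 200 UMIs.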

Additional observations from a re-analysis of the deposited data

Results flagged for a closer look

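Olfm4 was also found in barcodes that belong to no treatment group and enter no comparison above. Barcodes with no hashtag held 33 Olfm4 UMIs in the liver-labelled library, in 7 of 540 barcodes (13.2 CPM, 9.05 to 18.5), and 58 in the spleen-labelled library, in 6 of 1627 barcodes (12.4 CPM, 9.43 to 16.1), of which 38 lay in 1 barcode. Barcodes with more than 1 hashtag held 921 Olfm4 UMIs in the liver-labelled library, in 46 of 616 barcodes (109.5 CPM), and 496 in the spleen-labelled library, in 20 of 215 (182 CPM). All 4 levels lay above those of T cell-like cells in the same library, which were 1.97 CPM and 0 UMIs (up to 1.34 CPM). Neutrophils among these barcodes were not separated from the rest, and 81 and 49 of those with no hashtag and 313 and 121 of those with several had at least 5% of their UMIs from S100a8 and S100a9.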

How the results depend on the processing

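Of 112 alternative values, 95 lay within the counting interval of the reported value, 17 lay outside it and 0 changed direction, and 14 of the 17 concerned high dose. All differences in shares of cells stayed within their intervals. At high dose the thinned ones ran from 7.18 to 13.7 points (labelled liver) and from 4.44 to 7.41 points (labelled spleen), and the differences without thinning were 12.2 and 8.52 points. The cause of the shifts was not tested. The log2 ratio of high dose to vehicle in the liver-labelled library (reported 1.51) was 1.21 with MULTIseqDemux, 1.26 with the dominant hashtag, 2.12 as a mean over cells, 1.13 at the vehicle cluster composition and 2.21 without the top 1% of cells. Chosen after seeing the data, it was 1.25 over clusters with at least 20 cells in every group and 1.06 with the unnamed Myb and Cd34 cluster. The ratio in the spleen-labelled library (reported 2.23) was 1.98 with MULTIseqDemux, 1.83 in neutrophil-like clusters only, 1.82 in cells with at least 5% of UMIs from S100a8 and S100a9, 2.40 over a total without the 20 most abundant genes, 1.54 at the vehicle cluster composition, 3.23 without the top 1% of cells and, chosen after seeing the data, 1.77 over clusters with at least 20 cells in every group. At low dose the ratio (reported 0.52 and 0.88) was 0.66 as a mean over cells in the liver-labelled library, and 1.01 and 1.22 without the top 1% of cells. Leaving out the top 1% of cells removes a larger part of the Olfm4 UMIs from vehicle than from high dose. No paired analysis was possible because each group was 1 pooled sample in each library, and for the same reason no replicate could be left out.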
